A study of Mus musculus with 2 samples.

Results

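The genes described here serve protein folding, quality control and export in the endoplasmic reticulum (ER). They are 45 genes listed by symbol and divided by role into 9 ER chaperones with their partners, 9 genes of oxidative folding and lectin chaperones, 9 genes of ER-associated degradation (ERAD), 4 stress sensors, 10 genes of the translocon and signal peptidase, and 4 genes of the COPII coat. All probe sets that the platform annotation assigns to 1 of these symbols were taken, which gave 99 probe sets for 44 of the 45 genes, out of 18193 named genes on the array. Sec61g was left without a value because its probe set is annotated to several genes. RNA came from the liver of female wild-type (wt) C57BL/6 mice aged 8 weeks, sacrificed 24 h after surgery. The sham group had a sham operation, and the group labelled acute kidney injury (AKI) had 30 min of warm ischemia of both kidneys followed by reperfusion. In each group 100 mg of frozen liver from 3 mice was pooled and measured on 1 Affymetrix array, so there are 2 arrays in all and no replicate. No test between the groups can be made, no value has a standard deviation over animals, and "higher" and "lower" describe these 2 pools.

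The ER is where hepatocytes fold the plasma proteins they secrete. Nascent chains enter through the Sec61 channel, lose their signal peptide, and fold with the help of BiP (the product of Hspa5), GRP94 (Hsp90b1), protein disulfide isomerases and the lectins calnexin and calreticulin. Correctly folded cargo leaves in COPII vesicles, and chains that fail to fold are returned to the cytosol by the Hrd1 ligase complex and degraded. When unfolded chains accumulate, the sensors IRE1 (Ern1), ATF6 and PERK are activated in what is called the unfolded protein response. IRE1 splices Xbp1 mRNA, and ATF6 and spliced XBP1 then switch on chaperone, ERAD and transport genes through promoter elements such as the ER stress element, where ATF6 acts with the factor NF-Y. The array measures the amount of Xbp1 mRNA, not its splicing.

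Values are differences of log2(signal + 71.8), AKI minus sham, for the probe set of each gene with the highest mean level. The constant 71.8 is the 25th percentile of all signals, and it shrinks the differences of weak genes. A gene counts as measured when this probe set reaches the median signal of its array on at least 1 array (225.7 for sham, 231.8 for AKI), which 43 of the 45 members and 13128 genes in all did. Atf6b, with a sham signal of 224.2 and an AKI signal of 83.1, stayed below this level. Pairs of signals are given below with sham first and AKI second. Where a gene reached the level on 1 array only, it had to differ to be measured, and the size of its difference depends on the constant. The other probe sets of a gene are the only repeat measurement. Across the 5149 genes with at least 2 measured probe sets, the differences of probe sets of the same gene had an SD of 0.70, and of 0.66 in the highest of 4 classes of level. This SD includes transcript variants and leaves out the mice.

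Members stood mostly higher in the AKI pool. In bulk tissue, more or fewer cells of a type cannot be told apart from more or less RNA per cell. The members were chosen with earlier results of these data known. The shares below therefore describe the list, and no conclusion is drawn from their being higher than over all genes. Of 43 measured members, 34 (79.1%) had a difference above 0, where 48.9% of all measured genes did. The median of the members was 0.56, against -0.0205 over all measured genes. At least 2-fold higher were 13 members, or 30.2%, where 10.4% of all measured genes passed the same fold. At least 4-fold higher were 6 members (Creld2, Hspa5, Manf, Syvn1, Sec24d and Dnajb9), where 2.09% of all genes did. At least 2-fold lower were 3 members (Derl2, Ern1 and Derl3), or 6.98%, where 12.5% of all genes were. Most members were strongly expressed: 37 lay in the highest class of level, where 12.2% of all genes were at least 2-fold higher and 13 of the 37 members were. Counted by probe set, 78.7% of the 94 measured probe sets of members were above 0 and 29.8% were at least 2-fold higher, against 51.0% and 12.1% of all 26031 measured probe sets. Of the 27 members with several measured probe sets, 20 had them all on 1 side of 0 and 7 on both. The scaling of the arrays moves all of these values together. Centring on 11 reference genes, of which 8 were above 0 and 1 at least 2-fold higher, lowered the median of all genes by 0.25 and left 9 members at least 2-fold higher and 4 lower, beside 930 and 2381 of all genes. Centring on 18 hybridization control probe sets raised it by 0.30 and gave 18 and 2 members, beside 2211 and 1066 of all genes, where the authors' scaling gave 1370 and 1635.

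Promoters are shown first because the letters of the ER stress element were found in members that differed very unequally between the pools. Promoter sequences of RefSeq (build GRCm38.p6), from 250 bases before to 50 bases after the annotated start, were matched by symbol to 37 of the 45 members. The 8 others, among them Manf, Hyou1 and Derl1, were not searched. The element was searched on both strands as CCAAT and CCACG with 9 bases between them. It was present in the promoters of 10 of these 37 members (27.0%), and in 37 of 27025 genes (0.137%) and 39 of 32851 promoters (0.119%) overall. Matches lay in chaperone, folding and ERAD genes, and in 0 of 3 sensor, 0 of 6 translocon and 0 of 4 COPII genes with a promoter. The list includes kinds of genes that are switched on through elements such as this one, as said above. A higher share among members therefore follows from the choice of genes, and no conclusion is drawn from it. The parts alone, counted also within the element, were common, CCAAT in 37.4% and CCACG in 32.8% of all promoters. With 1 mismatch allowed among the 10 fixed letters, a setting chosen after the exact matches were seen, 17 of the 37 members (45.9%) and 1.72% of all genes had a match. The stretches below run 5′ to 3′ on the strand of the gene, with the fixed letters in capitals and 10 bases on each side. Where the element lies in the opposite orientation its reverse complement is seen, with CGTGG first and ATTGG last. The first 5 lines belong to chaperone genes.
Hspa5, chr2:34772015-34772053, plus strand: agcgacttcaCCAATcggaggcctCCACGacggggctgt
Hsp90b1, distal copy, chr10:86705628-86705666, minus strand: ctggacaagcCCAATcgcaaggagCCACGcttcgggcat
Hsp90b1, proximal copy, chr10:86705523-86705561, minus strand: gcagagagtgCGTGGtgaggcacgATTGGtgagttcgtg
Dnajc3, chr14:118937817-118937855, plus strand: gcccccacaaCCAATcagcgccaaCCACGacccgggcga
Creld2, chr15:88819510-88819548, plus strand: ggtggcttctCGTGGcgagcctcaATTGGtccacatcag
Pdia6, chr12:17266481-17266519, plus strand: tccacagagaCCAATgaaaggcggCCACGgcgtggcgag
Calr, chr8:84847065-84847103, minus strand: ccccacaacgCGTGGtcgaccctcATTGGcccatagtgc
Canx, chr11:50325790-50325828, minus strand: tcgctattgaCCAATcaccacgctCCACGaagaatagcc
Ero1lb, chr13:12565672-12565710, plus strand: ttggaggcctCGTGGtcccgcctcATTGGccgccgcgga
Derl3, chr10:75893232-75893270, plus strand: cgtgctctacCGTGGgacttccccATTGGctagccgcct
Syvn1, chr19:6046522-6046560, plus strand: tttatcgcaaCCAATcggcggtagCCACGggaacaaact

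All 11 copies lay before the annotated start, the nearest in Syvn1, 26 bases before it, and the farthest in Hsp90b1, 194 bases before it. The Hspa5 copy ended 47 bases before the start and the Creld2 copy 108. A shorter form, ATTGG and CCACG with 1 base between, was present in 12 of all promoters (0.0365%), among them those of Herpud1 and Dnajb11. The Dnajb11 match lay after the start. The letters TGACGTGG, a core bound by XBP1 and ATF6, occurred in 0.676% of all promoters and in that of 1 member, Sec24d. Both matches before a start are shown in the same way.
Herpud1, chr8:94386367-94386397, plus strand: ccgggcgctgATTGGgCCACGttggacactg
Sec24d, chr3:123267460-123267487, plus strand: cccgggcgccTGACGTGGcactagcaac

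**Figure D1:**
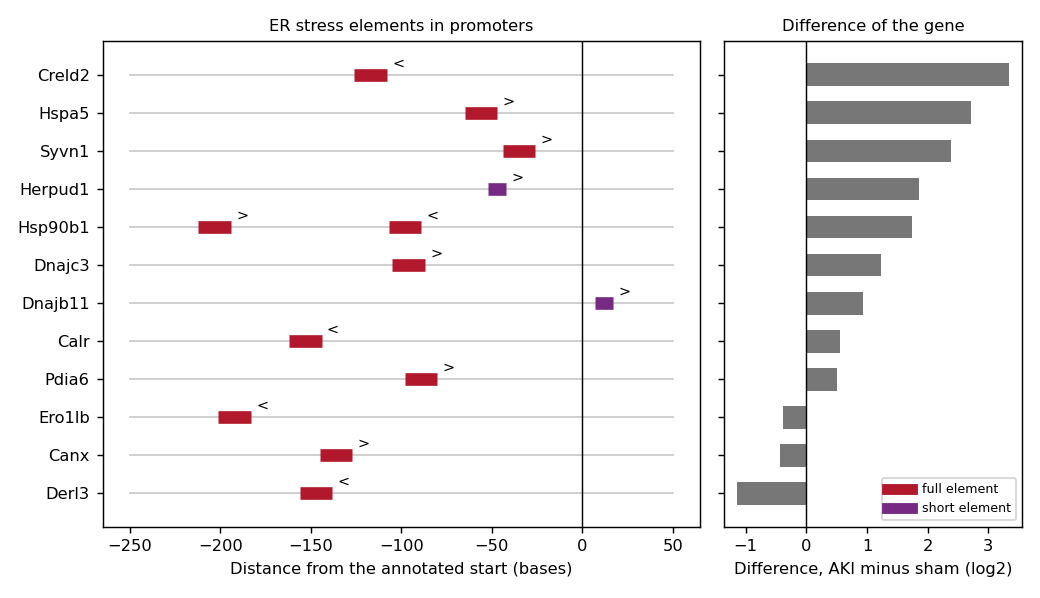
Left, position of the full (red) and short (purple) ER stress element in the promoters of members, in bases from the annotated start, with > for the orientation of the gene and < for the opposite one. Right, difference of the same gene, as AKI minus sham in log2(signal + 71.8). Genes with an element ran from Creld2 at 3.34 to Derl3 at -1.14.

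Among the 10 measured members with the full element, 7 were above 0 and 5 were at least 2-fold higher (Creld2, Hspa5, Syvn1, Hsp90b1 and Dnajc3), and their median was 0.90. Canx, Ero1lb and Derl3 were below 0. Of these Derl3 was past 2-fold, but it reached the level filter in the sham pool only and was at -0.84 with centring on hybridization controls and at -0.77 with a constant at the table's median. Among the 25 measured members with a promoter in the table and no full element, 20 were above 0, 7 were at least 2-fold higher and 2 lower, with a median of 0.57. Herpud1 and Dnajb11, which hold the short form, are counted among these 25. Of all 10537 measured genes with a promoter, 5160 were above 0, 1101 at least 2-fold higher and 1318 lower, with a median of -0.021. With 1 mismatch allowed the medians were 0.55 over 16 members with a match and 0.60 over 19 without. Of genes outside the list that held the element, 7 were measured, with a median of 0.32. Pan2 (425.0 and 1335.0, a difference of 1.50) was at least 2-fold higher. The 3 others past 2-fold reached the level on 1 array only, 4930402F11Rik with signals of 17.9 and 309.0, Acacb with 860.9 and 51.9, and Acnat2 with 888.6 and 26.4. A match of letters is a description of the sequence, and binding was not measured.

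Of ER chaperones and their partners, 6 of the 9 were at least 2-fold higher and 0 lower, where 10.4% and 12.5% of all measured genes were. All 9 genes were above 0, with a median of 1.75. This was the highest median of the 6 groups, except without probe sets of suffix _s_at, _x_at or _a_at, where chaperones were at 1.23 and the COPII coat at 1.41. That setting covered other genes. It left 7 chaperones, without Hspa5 and Hsp90b1, whose probe sets all have such a suffix, and 3 COPII genes, without Sec31a. All 9 chaperones were at least 2-fold higher with centring on hybridization controls, where 16.8% of all measured genes were. With centring on reference genes 5 were, beside 7.08% of all measured genes. For Hspa5, the Hsp70 chaperone BiP of the ER lumen, the signal was 13721.5 with sham and 89997.6 with AKI RNA, a ratio of 6.56 and a difference of 2.71. The AKI pool was higher with each of its 3 probe sets, from 2.08 to 2.89. Creld2, an ER-resident protein known to be induced by ER stress, had signals of 851.9 and 9257.2 and the largest difference of the members, 3.34. Manf, which encodes an ER factor that binds BiP and can be secreted, had signals of 2017.9 and 10901.4 (2.39). Both are represented by 1 probe set, so the probe sets of these genes give no repeat.

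The Hsp90 chaperone GRP94, Hsp90b1, had signals of 7296.9 and 24634.0 (1.75), and its other probe set was at 1.98. Among the J-domain partners of BiP, Dnajb9 was the highest, with signals of 6433.5 and 26295.8 (2.02). Dnajc3 had signals of 3627.4 and 8632.3 (1.23), but its 5 probe sets ranged from 0.13 to 1.23 and only 2 of them reached 2-fold. Dnajb11 (1374.4 and 2694.6, a difference of 0.94) and its partner Sdf2l1 (722.8 and 1227.6, 0.71) stayed under 2-fold. Hyou1, the nucleotide exchange factor GRP170 of BiP, was at 0.95 with signals of 2819.0 and 5519.2. Its 3 probe sets disagreed in sign, the others being at 0.63 and -0.62. Every measured probe set of Creld2, Hspa5 and Manf was thus at least 4-fold higher with AKI in the authors' scaling. Dnajb9 was near that line, and it was at 1.77 with centring on reference genes and 1.99 with centring on array medians. Dnajb11, Sdf2l1 and Hyou1 passed 2-fold with centring on hybridization controls, at 1.23, 1.01 and 1.25, and Hyou1 also with lowess centring, at 1.02.

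**Figure D2:**
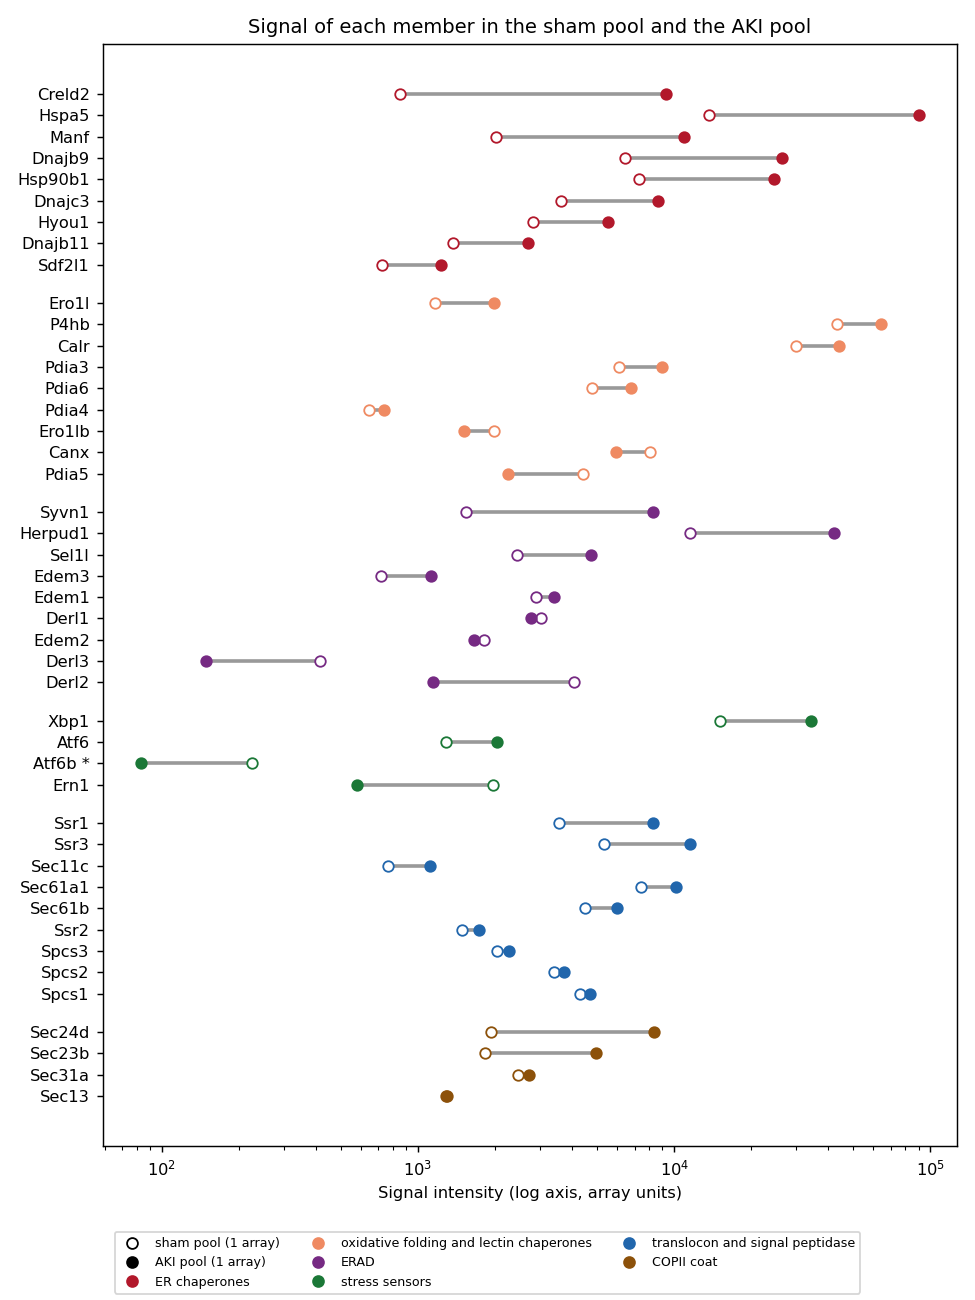
Signal intensity of each member in the sham pool (open circle) and the AKI pool (filled circle), 1 array each, on a log axis, for the probe set with the highest level and sorted by difference within each role. An asterisk marks Atf6b, which did not reach the level filter. All 9 chaperone genes lie to the right in the AKI pool. Atf6b and 9 of the 43 measured members lie to the left, among them Pdia5, Derl2, Derl3 and Ern1.

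Disulfide isomerases, oxidases and lectin chaperones differed less. Their median was 0.51 over 9 genes, 6 were above 0, and 0 of the 9 reached 2-fold in either direction. Of all measured genes, 10.4% were at least 2-fold higher and 12.5% lower. P4hb, the classic protein disulfide isomerase, had signals of 43198.9 and 64055.9 (0.57), and Calr, the lectin chaperone calreticulin, 29849.6 and 44013.1 (0.56). The 3 probe sets of Calr lay within 0.50 to 0.56. Pdia3 (6087.4 and 8936.4, 0.55) and Pdia6 (4763.3 and 6798.8, 0.51), which are isomerases too, were close to these values. Ero1l, an oxidase gene whose product regenerates isomerases, was at 0.73 with signals of 1165.9 and 1987.3. Pdia4 was at 0.18, with its other probe set at 0.55. Canx, the membrane lectin calnexin, went the other way, with signals of 8023.0 and 5939.7 (-0.43) and 3 probe sets between -0.59 and -0.10. Pdia5 had signals of 4391.1 and 2237.3 (-0.95), and the second oxidase gene, Ero1lb, was at -0.38. Except for Pdia5 and Ero1l, these differences were smaller than the SD of 0.70 between probe sets of 1 gene.

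Genes of ERAD split. The median over 9 genes was 0.22, or -0.029 with centring on reference genes and 0.0085 with the probe set of each gene closest to 0. At least 2-fold higher were 2 members (22.2%) and 2 were lower (22.2%), where 10.4% and 12.5% of all measured genes were. Syvn1, the ubiquitin ligase Hrd1 at the centre of the pathway, had signals of 1537.3 and 8299.8 (2.38), and its other probe set was at 2.32. Herpud1, an adaptor of the Hrd1 complex, had signals of 11570.7 and 41977.4 (1.85), with the other probe set at 1.63. Sel1l, which stabilizes Hrd1, was at 0.94 with signals of 2424.4 and 4722.9, but its 5 probe sets ranged from -0.12 to 0.94. The mannosidase-like genes Edem1 (0.22), Edem2 (-0.13) and Edem3 (0.60), which mark misfolded glycoproteins for removal, each had 2 probe sets, and the second ones were at 0.31, -0.13 and 0.72 in the same order.

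The derlins, membrane proteins of the exit channel, did not share a direction. Derl2 had signals of 4054.6 and 1139.6 (-1.77), whereas its other probe set, with 1111.1 and 990.9, was at -0.15. Derl3 had weak signals, 412.3 and 148.5 (-1.14), on its only probe set, the second below the level filter. Derl1 was at -0.12 with the probe set of the highest level, and its 3 other probe sets were at 0.59, 1.24 and 1.60. A direction for Derl1 and a size for Derl2 therefore depend on the probe set.

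Among the sensors, Xbp1, the transcription factor gene that IRE1 activates by splicing, had signals of 15076.3 and 34173.6 (1.18). Its 4 probe sets were all above 0, between 0.51 and 1.57. Atf6 had signals of 1281.8 and 2030.8 (0.64). Its 2 other probe sets were at 1.65 and 2.81, the latter with a signal of only 76.3 in the sham pool. Ern1, the gene of IRE1 itself, had signals of 1967.1 and 577.1 (-1.65), but its other measured probe sets were at -0.58 and 0.29. The median over the 3 measured sensors was 0.64, and -0.15 with Atf6b included.

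**Figure D3:**
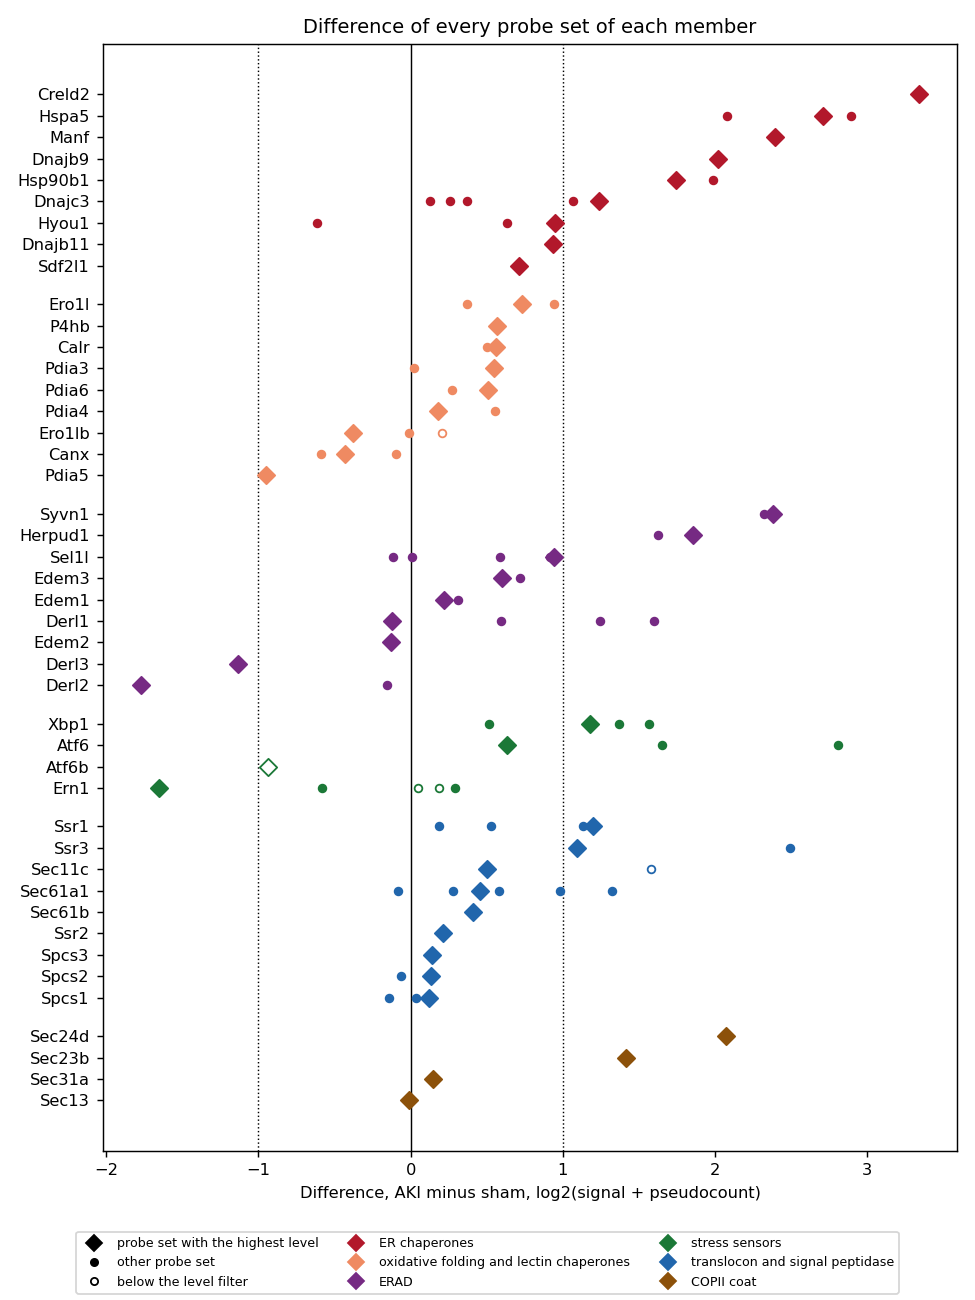
Difference of every probe set of each member, as AKI minus sham in log2(signal + 71.8), with diamonds for the probe set of the highest level, small circles for other probe sets and open symbols for those below the level filter. Dotted lines mark 2-fold. Probe sets of Hsp90b1, Syvn1 and Herpud1, for example, lie close together, while those of Derl1, Derl2, Ern1, Atf6, Hyou1, Sec61a1 and Ssr3 spread widely. Those of Hspa5 run from 2.08 to 2.89.

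All 9 measured genes of the translocon, its associated TRAP complex and signal peptidase were above 0 with the authors' scaling, but 5 were with centring on reference genes. The median was 0.41, or 0.19 with the probe set of each gene closest to 0. At least 2-fold higher were 2 of the 9 genes (22.2%), where 10.4% of all measured genes were. The 2 members past 2-fold were TRAP subunits, Ssr1 with signals of 3561.1 and 8254.4 (1.20) and Ssr3 with 5335.8 and 11487.9 (1.10). With centring on reference genes they were at 0.95 and 0.85, and 0 of the 9 genes passed 2-fold. The 4 probe sets of Ssr1 ranged from 0.19 to 1.20, and the other probe set of Ssr3 was at 2.49. Ssr2, also of TRAP, was at 0.21. In the channel itself, Sec61a1, its pore subunit, had signals of 7387.2 and 10164.8 (0.46), with 6 probe sets from -0.08 to 1.32, and Sec61b was at 0.41 with 4500.7 and 6001.2. The signal peptidase genes Spcs1 (0.12), Spcs2 (0.13) and Spcs3 (0.14) were nearly level between the pools, and the catalytic subunit gene Sec11c was at 0.50.

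In the COPII coat, the inner coat genes had larger differences than the outer coat genes. Sec24d, which selects cargo, had signals of 1923.9 and 8322.5 (2.07, or 1.82 with centring on reference genes). Its partner in the inner coat, Sec23b, had 1821.3 and 4968.3 (1.41). The outer coat genes Sec13 (1297.8 and 1289.1, -0.0092) and Sec31a (2451.5 and 2721.5, 0.15) hardly differed. The group median was 0.78 over 4 genes, each with 1 probe set. Paralogs of the inner coat genes had smaller or opposite differences: Sec24a was at 0.76, Sec24b at 0.65, Sec24c at -0.23 and Sec23a at -0.68, although further probe sets of Sec24b and Sec24c were at -0.084 and 1.37.

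Other genes of the same pathway, 122 in 5 lists of which 116 were measured, had a median of 0.045, with 12 at least 2-fold higher (10.3%) and 4 lower (3.45%). These shares can be read beside 10.4% and 12.5% of all genes. Of 28 other folding genes, the prolyl isomerase gene Fkbp11 (155.9 and 821.0, 1.97) and Tmx1 (1.09) were at least 2-fold higher and Tmx2 (-1.27) was lower, with a list median of 0.052. Of 21 other ERAD genes, the ubiquitin-conjugating enzyme genes Ube2j1 (1.44) and Ube2g2 (1.19) were higher and the ligase gene Rnf5 (-1.48) was lower (median 0.12). Among 13 genes around the sensors (median 0.020), Eif2ak3, the gene of the PERK sensor, had signals of 672.0 and 2640.8 (1.87), Wfs1 was at 1.19, and Creb3l2 at 1.05, while Yipf2 had 649.4 and 63.6. Of 25 other translocation genes (median 0.016), those of the signal recognition particle, Srp19 (1.45), Srp68 (1.43) and Srp9 (1.42), were higher and 0 were 2-fold lower. Of 29 other genes of transport between ER and Golgi (median -0.11), the SNARE gene Sec22b (2.68) and the cargo receptor gene Surf4 (1.42) were higher and Sec16b (-1.10) was lower. Each of these 5 list medians changes sign with centring on reference genes or on hybridization controls.

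**Figure D4:**
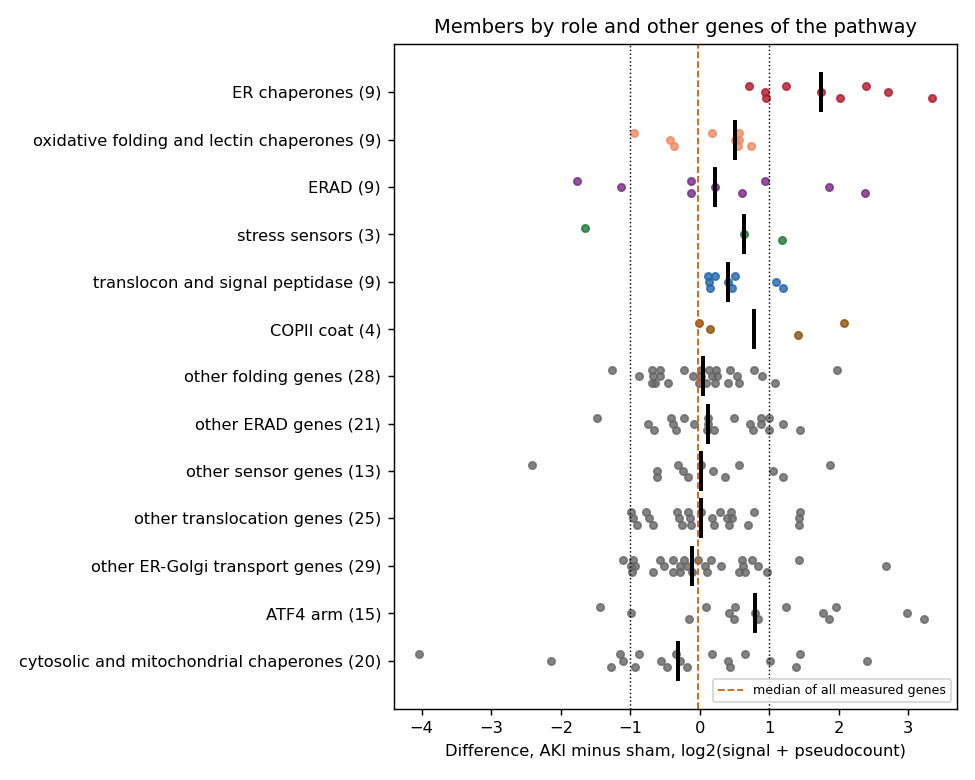
Difference of each measured gene (points) and list median (black bar), as AKI minus sham in log2(signal + 71.8), for the members by role (coloured) and for other genes (grey), with the number of genes in parentheses. The orange dashed line is the median of all measured genes, -0.0205, and dotted lines mark 2-fold. The chaperone median is 1.75 and the ERAD median 0.22 (-0.029 with centring on reference genes), while the medians of other pathway genes lie between -0.11 and 0.12 and change sign with the centring.

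Stress genes outside the ER lumen were set beside the members as a comparison. The ATF4 arm, which PERK and other kinases switch on, had a median of 0.79 over 15 measured genes, with 6 at least 2-fold higher and 1 lower. Atf4 (3306.4 and 13047.7, a difference of 1.96) and Ppp1r15a (632.8 and 2473.0, 1.85) were measured on both arrays, as was Atf5 at -1.43. Psat1 (33.5 and 913.2) and Atf3 (203.5 and 2090.2) reached the level in the AKI pool only. Cytosolic and mitochondrial chaperones had a median of -0.32 over 20 genes, with 4 higher, among them Bag3 (2.40) and Hsp90aa1 (1.44), and 5 lower, among them Hsph1 (-2.14). Fkbp4 had signals of 1724.7 and 37.8, the second below the level filter, and a further probe set of it was at 0.65. Counts of both lists can be read beside 10.4% of all measured genes at least 2-fold higher and 12.5% lower. Whether the ATF4 arm and the cytosolic and mitochondrial chaperones differ from the members was not tested, since each pool has 1 array.

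Markers of cell types were measured on the same arrays, where 10.4% of all measured genes were at least 2-fold higher and 12.5% lower. Of 10 hepatocyte markers 9 were measured, 0 of them past 2-fold with the authors' scaling, with a median of -0.40 and summed signals of 554864.5 (sham) and 458216.7 (AKI), and Alb had signals of 124515.9 and 98303.4. Neutrophil markers had summed signals of 2826.0 and 7626.1, with 3 of 7 measured genes (11 listed) at least 2-fold higher. These were S100a8 (161.4 and 2023.4), S100a9 (191.2 and 1666.6) and Ngp (889.1 and 2012.4). Differences were smaller for Elane (0.76), Mmp8 (0.31), Csf3r (0.14) and Mpo (-0.034). S100a8, S100a9 and Elane reached the level in the AKI pool only. Sums were 17540.3 and 11047.6 for macrophages (1 of 11 higher and 3 lower), 9710.5 and 6675.5 for endothelium (1 of 8 higher and 2 lower), and 9505.2 and 8455.7 for stellate cells (0 of 7 higher and 1 lower). For cholangiocytes they were 838.4 and 2556.7 over 2 measured genes, where Sox9 (2.58) was higher. Plasma and B cells, which express many ER chaperones, had sums of 12307.2 and 15030.4, with 0 of 8 measured markers at least 2-fold higher and 1 lower, Tnfrsf17 (288.1 and 47.0). Sdc1, with 7820.9 and 10687.5, made up most of both sums, and its difference is larger than that of the sums. Pancreatic acinar cells, another secretory type, had sums of 4777.2 and 4536.6, with 0 of 5 measured markers past 2-fold in either direction, and 1 above and 4 below 0, from Clps at -0.92 to Cel at 0.83. No marker was listed at 0. The part of neutrophil and cholangiocyte markers in the differences of the members was not tested.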

How the data were processed

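Signal intensity per probe set was used as deposited by the authors, on a linear scale, and the software behind it is not stated in any source used here. With the upper and lower 2% trimmed, both arrays had a mean of 500.0, so the deposited intensity values had been scaled to a common target. Of 45101 probe sets, 64 controls were left out, 34945 had 1 gene symbol in the platform annotation, 932 had several and were not named, and 9160 had none. Ero1l and Ero1lb are listed there as Ero1a and Ero1b.

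Differences, the level filter and the choice of probe set are given where first used. No test was made. Members, gene lists and calculations were chosen with earlier results of these data known. All members were open to naming. From other lists this held for up to 4 genes with the largest absolute difference, or all where 5 or fewer passed a fold. Paralogs of the COPII coat, the genes outside the list that hold the element, Alb, Sdc1 and the neutrophil markers under 2-fold were named after their values were seen. Other scalings, pseudocounts, level filters and choices of probe set were tried. Features of protein sequences were not analysed here. The calculation was run on simulated data in which probe sets of the same gene differed less than they do here. That run checks the calculation only and says nothing about the members. Calculations ran in Python 3.11.15 with pandas 2.3.3 and numpy 2.4.6, and lowess curves came from statsmodels 0.14.6.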

Additional observations from a re-analysis of the deposited data

How the results depend on the processing

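Centring on hybridization controls gave medians of 0.86 over all members, 2.04 for chaperones, 0.80 for oxidative folding and lectin chaperones, 0.52 for ERAD and 0.71 for the translocon, with 9 chaperones and 1 folding gene at least 2-fold higher. Centring on reference genes gave 0.31, 1.50, 0.26, -0.029 and 0.16, with 0 sensor and 0 translocon genes 2-fold higher. The median of the 11 reference genes themselves was 0.25. With probe sets averaged per gene, the ERAD median was 0.47 and that of sensors 1.16, with 2 sensor and 1 translocon genes 2-fold higher and 1 member lower. With the probe set closest to 0, medians were 0.27 over all members, 0.18 for folding genes, 0.0085 for ERAD and 0.19 for the translocon, 0 sensor and 1 translocon genes were 2-fold higher, 1 member was lower, and Ern1 was at 0.29. Without probe sets of suffix _s_at, _x_at or _a_at, fewer genes had a value. Medians were then 1.23 over 7 chaperones, 0.18 over 7 folding genes and 1.41 over 3 COPII genes, with 0 sensor and 1 translocon genes 2-fold higher. The sensor median was -0.15 without the level filter and 0.39 with centring on reference genes. Of the 6 members past 4-fold, Dnajb9 and Sec24d fell short of it with centring on reference genes (1.77 and 1.82) and with a constant at the table's median (both 1.99), and Dnajb9 also with quantile normalization (1.96) and centring on array medians (1.99). Of the 16 members past 2-fold, 9 stayed past it in the same direction under every alternative that gave them a value. These were Hspa5, Hsp90b1, Dnajb9, Creld2, Manf, Herpud1, Syvn1, Sec23b and Sec24d. Dnajb9, Creld2, Manf, Sec23b and Sec24d have 1 probe set each, without such a suffix. Averaging, the probe set closest to 0 and leaving out suffixes could therefore not change their values. Hspa5 and Hsp90b1 have suffixed probe sets only, so they had no value without these. Dnajc3, Xbp1 and Ssr1 stayed past 2-fold in the same direction under 9 of 12 alternatives each. Derl2 and Ern1 did so under 10 of 12 each, Derl3 under 8 of 10 and Ssr3 under 10 of 11. Each group rests on 1 array, which limits all of these values.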
